A study of Homo sapiens with 4 samples.

Results

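The 10 genes described here belong to the Hippo pathway and its transcription factors. They are YAP1, WWTR1, TEAD1, TEAD2, TEAD3, TEAD4, LATS1, LATS2, STK3 and AMOTL2, and they were chosen by name. Included were all sites that either PARP1 IP list assigned to the Ensembl identifier of 1 of these genes, which gave 566 sites of the 396030 in both lists. Of these, 274 were among the 166248 sites of IP 1 (0.165%) and 292 among the 229782 sites of IP 2 (0.127%). All 10 symbols matched a protein-coding gene of GENCODE release 29, which holds 19922 such genes.

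In the Hippo pathway, the kinase encoded by STK3 activates the kinases LATS1 and LATS2, which phosphorylate the coactivators YAP1 and TAZ (the product of WWTR1) and hold them in the cytoplasm. When the kinases are inactive, YAP1 and TAZ enter the nucleus and switch on genes through the DNA-binding TEAD proteins, since neither coactivator binds DNA by itself. AMOTL2 is an angiomotin family protein of cell junctions that binds and restrains YAP1, and its gene is itself a target of YAP1 and TEAD. In kidney tubule cells the pathway is known for its part in growth, repair after injury and fibrosis.

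The samples are 2 immunoprecipitations of PARP1, a nuclear enzyme that builds poly(ADP-ribose) on proteins and acts in DNA repair, and 2 inputs. All came from HK-2, a line of human proximal tubule epithelial cells kept in culture by immortalisation, with no other treatment named in the labels, and the immunoprecipitations used a Flag antibody. The labels do not say whether PARP1 carried a Flag tag in these cells, so what the antibody bound is known only from the name of the group. The labels describe no IP with another antibody, so the lists have no background measured in a control IP. Input values were not analysed here. Each list holds single mutated bases with their strand, the number of sequenced tags over the base, the number of those tags that carry the mutation (at least 2) and the authors' false discovery rate. A site was called a sense site when the authors placed it in an exon or intron of the gene on its own strand. The labels do not say whether separate cultures were used for the IPs, and differences between the 2 lists may therefore be technical.

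The tags over all listed sites came to 419675 in IP 1 and 572870 in IP 2, which is not the depth of the libraries. Sense sites of protein-coding genes made up 62.5% of IP 1 and 54.5% of IP 2. Of 11 proximal tubule marker genes, 6 were named in both lists, and SLC5A2, AQP1 and ANPEP were among those named in neither. The median percentile of this list by site density among genes of like length was 25.4 in IP 1 and 28.9 in IP 2, where 50 is the middle. PAX8, a renal epithelial transcription factor, stood above it with 23 and 21 sense sites in IP 1 and IP 2 (percentiles 98.02 and 94.5). The receptors of protein uptake in the proximal tubule had few, with 2 and 4 for LRP2 (25.4 and 25.7) and 1 and 6 for CUBN (14.4 and 28.9). The leukocyte genes PTPRC, CD68 and CD3E had none on the sense strand. A gene without a sense site takes the middle rank of all such genes of like length, so length alone sets its percentile. In IP 1 this gave 8.81 for PTPRC, 31.4 for CD3E and 45.1 for CD68. The leukocyte medians of 31.4 and 29.9 are such ranks. The tubule list held 31 and 48 sense sites, 23 and 21 of them in PAX8. The medians were 23.2 and 26.7 for 4 endothelial genes, 29.3 and 12.3 for 4 fibroblast genes and 20.2 and 17.6 for 5 genes of other nephron segments. They were 39.2 and 57.9 for 5 epithelial genes, and 82.3 and 77.8 for VIM and CDH2. Because many genes of these lists had few sense sites or none, the ranks cannot show whether tubule genes differ from those of other cell types. A gene without a listed site may still be transcribed, because a site is listed only where tags carry a mismatch.

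The exonic sites that follow are shown because they are bases where the lists touch exons of these genes. They give 1 site from each kind of result described below. Exons of mature mRNA and of unspliced RNA cannot be told apart in the lists. Sequences are from GENCODE release 29 transcripts (GRCh38), 5′ to 3′ in the sense of the mRNA, and capitals mark the base or bases the lists give as mutated. The first 2 were listed at the same base in both IPs.
AMOTL2 5′ UTR deletion, chr3:134374374-134374375: aggttgtggtGTctgactgcgc
LATS2 coding substitution, chr13:20988809-20988809: gccggtcccgCggcccaccag
LATS2 3′ UTR deletion, chr13:20973972-20973972: tgggggggggGaactgaaaca
LATS1 coding substitution, chr6:149684114-149684114: ctgttcctgtTggcagacaac
YAP1 coding substitution, chr11:102110880-102110880: ccgcctcaacCggccccccag
AMOTL2 coding substitution, chr3:134358628-134358628: cccagactgaGggccccccag
TEAD2 3′ UTR insertion and deletion, chr19:49340781-49340781: ttttttttttTaatataacga
TEAD1 3′ UTR deletion, chr11:12943676-12943677: catgatgagaTTttttttctcc
WWTR1 3′ UTR deletion, chr3:149519293-149519293: taatcctgttTgctacagttg

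Each of the 10 genes had at least 1 site in both IPs, against 55.5% of all protein-coding genes. The members are longer than most genes, with a median span of 84.9 kb against 27.2 kb, and longer genes are named more often. Among genes of like span (the same 1 of 10 bins of protein-coding genes by length), 92.2% were named in both IPs in the group of WWTR1, TEAD1 and STK3, 84.4% in that of YAP1, 80.2% in that of TEAD4, LATS1 and LATS2, and 55.9% in that of TEAD2, TEAD3 and AMOTL2. The members' sense sites numbered 255 in IP 1 and 266 in IP 2. Their density is given below as sense sites per 10 kb of gene span with a 95% exact Poisson interval, which covers counting error only. It is not scaled to the size of the lists, 166248 sites in IP 1 and 229782 in IP 2. The scaled ratios between the IPs are given with the test. The lists hold no expression values, so the level of a transcript and its recovery in the IP cannot be told apart, nor can the number of cells and the RNA per cell. The rank of that density among genes of like span is given as a percentile with no test, and its median over the 10 genes was 92.5 in IP 1 and 89.0 in IP 2, against 50 over all protein-coding genes.

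The 2 coactivator genes ranked alike in IP 1 and apart in IP 2. YAP1 (chr11:102110461-102233423, plus strand) carried 29 sense sites in IP 1, with 11 in IP 2. Its density was 2.36 per 10 kb in IP 1 (1.58 to 3.39) and 0.895 in IP 2 (0.447 to 1.60), and the intervals overlap only between 1.58 and 1.60. The YAP1 percentile was 93.2 in IP 1 and 52.8 in IP 2, where its 11 sites stood beside a median of 9 for genes of its length. WWTR1 (chr3:149517235-149736714, minus strand) carried 48 sense sites in IP 1, with 60 in IP 2, or 2.19 (1.61 to 2.90) and 2.73 (2.09 to 3.52) per 10 kb. These densities overlap within counting error, and the percentiles were 94.5 and 95.7.

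The 4 TEAD genes encode closely related DNA-binding proteins, and their site counts differed widely. TEAD1 (chr11:12674591-12944483, plus strand) carried 54 sense sites in IP 1, with 55 in IP 2, or 2.001 (1.503 to 2.61) and 2.04 (1.54 to 2.65) per 10 kb, at percentiles 91.8 and 88.7. TEAD2 (chr19:49340595-49362457, minus strand) had 11 and 8, or 5.03 (2.51 to 9.002) and 3.66 (1.58 to 7.21) per 10 kb, at percentiles 98.8 and 93.9. The TEAD2 group of genes, with spans from 18.3 to 27.2 kb, had a median of 1 sense site in each IP. TEAD3 (chr6:35473597-35497076, minus strand), which lies in the same length group, had only 2 sense sites in IP 1 and 1 in IP 2, at percentiles 59.8 and 41.1. With 0.852 (0.103 to 3.08) and 0.426 (0.0108 to 2.37) sites per 10 kb, the TEAD3 intervals overlap those of TEAD2 in both IPs. TEAD4 (chr12:2959330-3040673, plus strand) had 19 and 31, or 2.34 (1.41 to 3.65) and 3.81 (2.59 to 5.41) per 10 kb, at percentiles 90.2 and 97.1.

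Among the kinases, both LATS genes ranked high in IP 1. LATS1 (chr6:149658153-149718256, minus strand) carried 14 sense sites in IP 1, with 5 in IP 2, or 2.33 (1.27 to 3.91) and 0.832 (0.270 to 1.94) per 10 kb. Its percentile was 90.1 in IP 1 and 50.03 in IP 2. LATS2 (chr13:20973032-21061547, minus strand) had 27 and 23, or 3.05 (2.01 to 4.44) and 2.60 (1.65 to 3.90) per 10 kb, at percentiles 95.4 and 89.3. STK3 (chr8:98371228-98942827, minus strand), the longest member at 571.6 kb, had many sites, 37 and 62, and a low density of 0.647 (0.456 to 0.892) and 1.08 (0.832 to 1.39) per 10 kb. Its percentiles of 59.7 and 67.9 lay nearer the middle of its length group, which is wide, with spans from 159.4 to 2473.5 kb.

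AMOTL2 (chr3:134355874-134375479, minus strand), the shortest member at 19.6 kb, had the highest density of the 10 genes in both IPs. It carried 14 sense sites in IP 1, with 10 in IP 2, or 7.14 (3.90 to 11.98) and 5.10 (2.45 to 9.38) per 10 kb, at percentiles 99.7 and 97.7. In order of density in IP 1 the genes ran AMOTL2, TEAD2, LATS2, YAP1, TEAD4, LATS1, WWTR1, TEAD1, TEAD3 and STK3, and each neighbouring pair in that order had overlapping intervals. The order in IP 2 was AMOTL2, TEAD4, TEAD2, WWTR1, LATS2, TEAD1, STK3, YAP1, LATS1 and TEAD3. There the intervals of TEAD1 and STK3 did not overlap, and those of the other neighbouring pairs did.

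**Figure D1:**
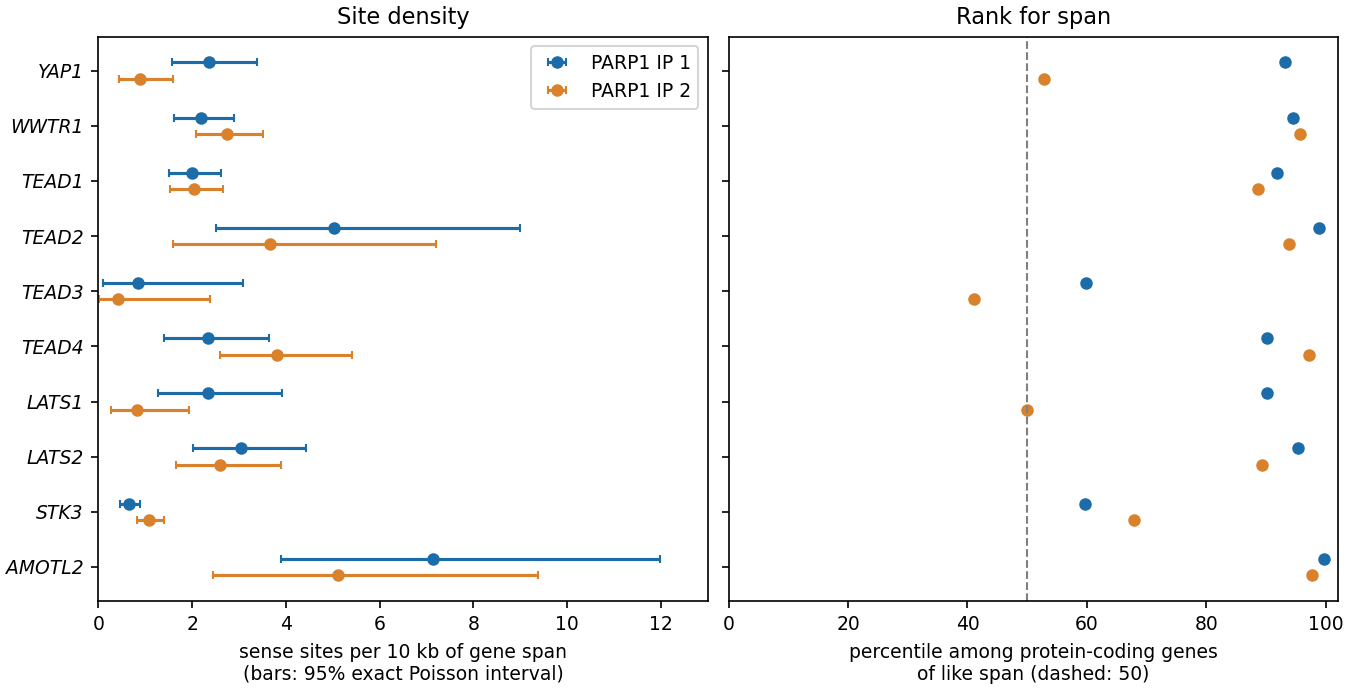
Left, sense sites per 10 kb of gene span for each member in PARP1 IP 1 (blue) and IP 2 (orange), with 95% exact Poisson intervals; right, the percentile of each density among protein-coding genes of like span, with the middle (50) dashed. AMOTL2 has the highest density in both IPs, YAP1 and LATS1 drop to percentiles of 52.8 and 50.03 in IP 2, and TEAD3 and STK3 lie closest to the middle in IP 1.

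The difference between the IPs was tested for each gene with at least 5 sense sites, by a two-sided exact binomial test of the IP 2 share of its sites against the IP 2 share of all sites, with Benjamini-Hochberg adjustment over 8594 protein-coding genes. This compares the 2 libraries and not 2 conditions. Of those genes, 0.0233% were called higher in IP 2 and 0.326% lower, at an adjusted p below 0.05. YAP1 was the only member called. Its 11 sense sites in IP 2 against 29 in IP 1 gave a ratio, scaled to the total of each list, of 0.274 (interval 0.124 to 0.566; exact binomial p = 0.000147, adjusted p = 0.0467). The YAP1 call was lost under each of the 4 other ways of scaling, filtering or counting the sites that were tried, with adjusted p from 0.0506 to 0.375. LATS1 had a similar ratio of 0.258 (0.0728 to 0.759) with fewer sites, and its adjusted p was 0.264 in the exact binomial test. At an unadjusted p below 0.05, 2 members passed, and 10.7% of all genes tested did so.

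For the other members tested, the IP 2 to IP 1 ratio was 1.21 (0.794 to 1.87) for STK3, 1.18 (0.646 to 2.21) for TEAD4, 0.904 (0.608 to 1.35) for WWTR1, 0.737 (0.497 to 1.09) for TEAD1 and 0.616 (0.338 to 1.12) for LATS2. The ratio was 0.526 (0.184 to 1.44) for TEAD2 and 0.517 (0.205 to 1.25) for AMOTL2. With intronic sites as the total, the WWTR1 ratio was 1.01. All of the intervals hold 1, and they leave room for changes of up to several fold in the genes with few sites. The share of all sites that fell on the sense strand of protein-coding genes moved with the IP too, and was 0.873 times as high in IP 2 as in IP 1. With intronic sites as the total in place of all sites, the adjusted p of YAP1 was 0.139 in the exact binomial test. TEAD3 had too few sites to be tested.

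Sites at the same base and strand in both IPs show which single bases recurred. Such bases were not compared with the inputs or with the genome of HK-2 cells. Recurrence therefore does not show that a base was recovered through PARP1. Among the members there were 18 such sense bases, in 7 of the 10 genes, against 14.1% of all protein-coding genes with at least 1. Longer genes again have more, and the share among genes of like span was 37.2% for the group of WWTR1, TEAD1 and STK3, 28.9% for that of YAP1, 21.6% for that of TEAD4, LATS1 and LATS2, and 8.48% for that of TEAD2, TEAD3 and AMOTL2. TEAD4 had 5, LATS2 had 4, WWTR1 had 3, STK3 and AMOTL2 had 2 each, and TEAD1 and LATS1 had 1 each. YAP1, TEAD2 and TEAD3 had none. Shared bases made up 7.06% of the members' sense sites in IP 1 (4.24 to 10.9) and 6.77% in IP 2 (4.06 to 10.5), against 4.96% and 4.11% over all protein-coding genes.

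Most shared bases were intronic substitutions with few tags. Of the 18, 15 lay in introns and 15 were substitutions in both IPs. All tags carried the mutation in both IPs at 12 of them, and 6 had 2 mutated tags in both. In LATS2, the coding base at chr13:20988809-20988809 printed above was mutated in 2 of 2 tags in IP 1 and 4 of 4 in IP 2. The LATS2 intronic base chr13:21038066-21038066 was mutated in 2 of 2 tags in IP 1 and 5 of 6 in IP 2, and chr13:21038920-21038920 in 5 of 5 and 2 of 2. In TEAD1, chr11:12709671-12709671 was mutated in 4 of 4 and 3 of 3 tags. TEAD1 had 1 shared base with 54 and 55 sense sites, and TEAD4 had 5 with 19 and 31. The 2 shared bases of AMOTL2 are the adjacent bases of the 5′ UTR deletion printed above, in 3 of 8 tags in IP 1 and 2 of 4 in IP 2. That deletion was the only shared sense site of the members outside introns and coding sequence.

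**Figure D2:**
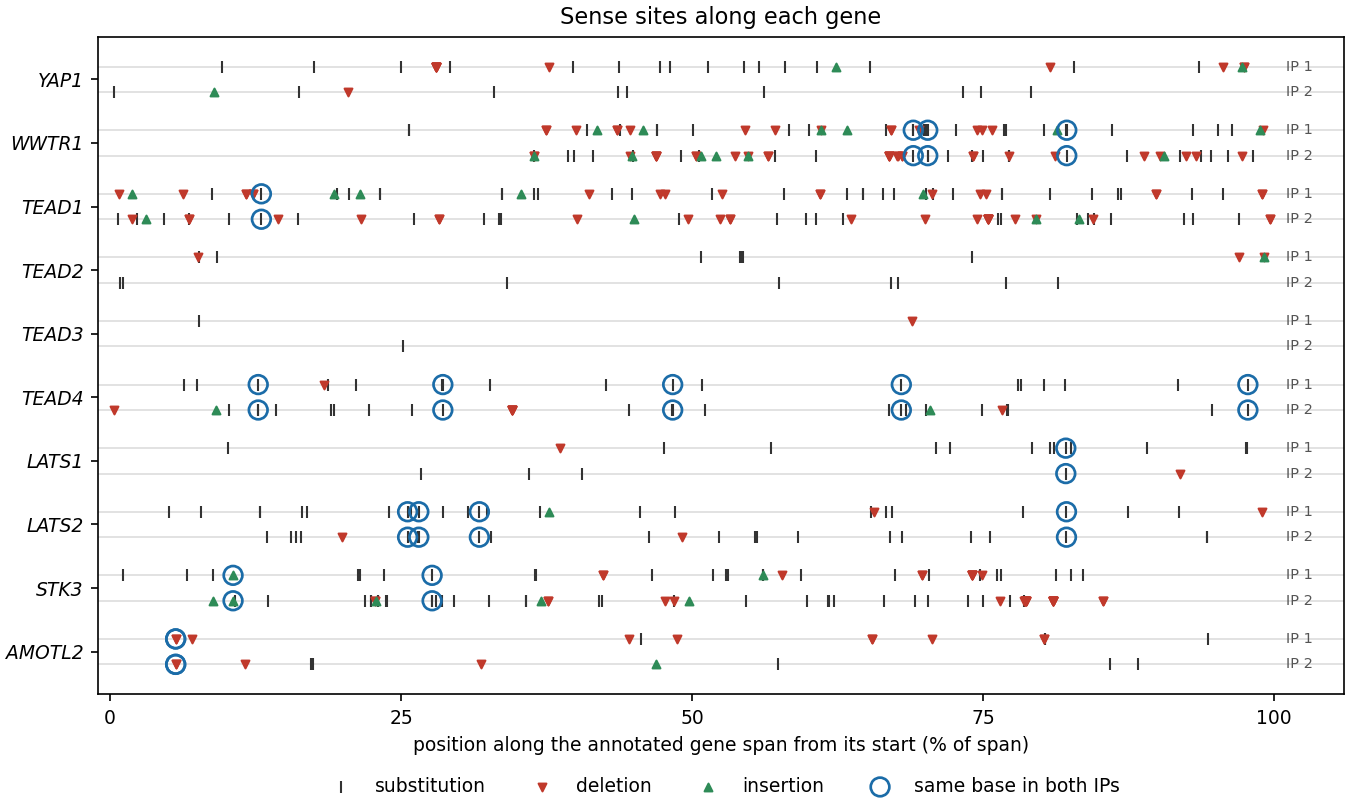
Sense sites of each member along its annotated span, from the gene start (0%) to its end (100%), with IP 1 above IP 2 for each gene, by mutation type; circles mark bases listed in both IPs. WWTR1 has no site in the first 25% of its span in either IP, the 5 shared bases of TEAD4 lie along the whole gene, and YAP1, TEAD2 and TEAD3 have no circle.

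The members' sites lay along the genes at a median of 56.8% of the span in IP 1 and 54.7% in IP 2, against 50.1% and 49.97% for all protein-coding genes. WWTR1 stood apart. None of its 48 and 60 sense sites lay in the first 25% of its annotated span, where all protein-coding genes had 25.01% and 25.2% of their sites. The annotated span of WWTR1 begins well before a start of the gene in RefSeq (GRCh38.p14) at base 149658025 of chromosome 3, and the 78.7 kb before that start (35.9% of the span) held 2 sites in IP 1 and 0 in IP 2. Over the 140.8 kb after it, the density of WWTR1 was 3.27 and 4.26 per 10 kb. A second RefSeq start at base 149703273 has 33.4 kb of the span (15.2%) before it, which held 0 sites in either IP, and the density after it was 2.58 and 3.23 per 10 kb. Which start HK-2 cells use was not tested. LATS2 and TEAD4 had 66.7% and 57.9% of their sites in the first 50% of the gene in IP 1, and 52.2% and 61.3% in IP 2. LATS1 had 21.4% and 60.0%, from 14 and 5 sites.

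Introns held 92.2% of the members' sense sites in IP 1 and 95.9% in IP 2. Introns of unspliced RNA and introns already spliced out cannot be told apart in the lists. Exons held 20 of 255 in IP 1 (7.84%, exact binomial interval 4.86 to 11.9) and 11 of 266 in IP 2 (4.14%, 2.08 to 7.28), against 9.36% and 8.77% over all protein-coding genes. Pooled over the IPs the share was 5.95% (4.08 to 8.34) against 9.04%. These shares are not matched for gene length, and the members are longer than most genes. Exons held 28.6% and 40% of the sites of AMOTL2, the shortest member, and 0% and 3.23% of those of STK3, the longest. Adjacent deleted bases also count here as separate sites. Among sites with at least 3 mutated tags the members' exon share was 9.64% (8 of 83, 4.25 to 18.1) against 13.8%, and the members' interval holds the value for all genes. The members' exon sites were 4 coding sites in each IP, 2 and 3 sites in 5′ UTRs, and 14 and 4 in 3′ UTRs. In 5 genes (YAP1, TEAD1, LATS1, LATS2 and AMOTL2) both IPs had an exon site. TEAD3 and TEAD4 had none in either IP.

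Several exon sites sat at runs of 1 base, as the printed sequences show. The LATS2 3′ UTR deletion ended a run of 10 G and was found in 10 of 11 tags in IP 1, and IP 2 did not list it. The TEAD2 3′ UTR base lay at a run of 14 T and was listed as an insertion in 2 of 6 tags and as a deletion in 3 of 6 tags, both in IP 1. A run of at least 5 equal bases held 3 of the 11 exonic deletions of the members (27.3%, 6.02 to 61.0) and 3 of 4 insertions (75.0%, 19.4 to 99.4), against 14.1% and 40.0% in the other protein-coding genes. None of the members' 10 exonic substitutions lay at such a run, against 2.62%. The printed coding substitutions were among these 10. The LATS1 base was mutated in 6 of 7 tags in IP 1, the AMOTL2 base in 4 of 13 tags in IP 2 and the YAP1 base in 2 of 2 tags in IP 2, each in 1 IP only. Each of the 21 exonic windows read from the transcripts occurred in no other gene's transcripts. No window was read for the STK3 3′ UTR deletion at chr8:98455357-98455358 in IP 2, which is counted among the 11 deletions. Intronic sites, which are most of them, could not be placed in sequence here.

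Tags over a site set WWTR1 and AMOTL2 apart from the other members. Sites where both of 2 tags were mutated formed 68.2% of the members' sense sites in IP 1 and 66.2% in IP 2, against 77.1% and 75.5% over all protein-coding genes. Sites with at least 5 tags made up 17.3% (12.8 to 22.5) and 16.5% (12.3 to 21.6), against 8.96% and 9.45%. WWTR1 and AMOTL2 held 29 of those 44 sites in IP 1 and 28 of 44 in IP 2. Without them, a split made after the values were seen, the other 8 members had 7.77% (4.42 to 12.5) and 8.16% (4.74 to 12.9), which lies on both sides of the value for all genes.

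In AMOTL2, 13 of 14 sense sites in IP 1 (92.9%, 66.1 to 99.8) and 8 of 10 in IP 2 (80%, 44.4 to 97.5) had at least 5 tags. Among the 2641 protein-coding genes with at least 10 sense sites in each IP, that share of AMOTL2 ranked at percentiles 99.98 and 99.8. AMOTL2 sites had a mean of 8.86 tags in IP 1 and 8 in IP 2, against 2.70 and 2.74 for all protein-coding genes, and none was a site with 2 tags. Mutated tags made up 34.7% and 33.8% of the tags over AMOTL2 sites, against 80.8% and 80.2%. That share is tied to depth, because a site with 2 tags is listed only when both are mutated. Such sites were 77.1% and 75.5% of those of all protein-coding genes. A comparison at equal depth was not made. The deepest, a 3′ UTR substitution at chr3:134356985-134356985, was mutated in 3 of 17 tags in IP 1. An intronic substitution at chr3:134359724-134359724 was mutated in 8 of 14 tags in IP 1.

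In WWTR1, 16 of 48 sense sites in IP 1 (33.3%, 20.4 to 48.4) and 20 of 60 in IP 2 (33.3%, 21.7 to 46.7) had at least 5 tags, which ranked at percentile 95.1 in both IPs. The mean was 4.58 and 4.53 tags per site, and the highest was 14 in each IP. Mutated tags made up 47.7% of the tags over WWTR1 sites in IP 1 and 53.3% in IP 2, again with no comparison at equal depth. Unlike these, the YAP1 sites had a mean of 2.45 and 2.36 tags and 2 of 29 and 1 of 11 had at least 5. TEAD2 had 5 of 11 such sites in IP 1 and 0 of 8 in IP 2, and TEAD4 had 0 of 19 and 6 of 31, so these 2 genes were deep in 1 IP each. TEAD1 had 2 of 54 and 6 of 55, among them an intronic substitution at chr11:12702146-12702146 with 8 of 8 tags mutated in IP 2. LATS2 had 3 of 27 and 2 of 23, LATS1 had 2 of 14 and 0 of 5, and STK3 had 1 of 37 and 1 of 62.

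**Figure D3:**
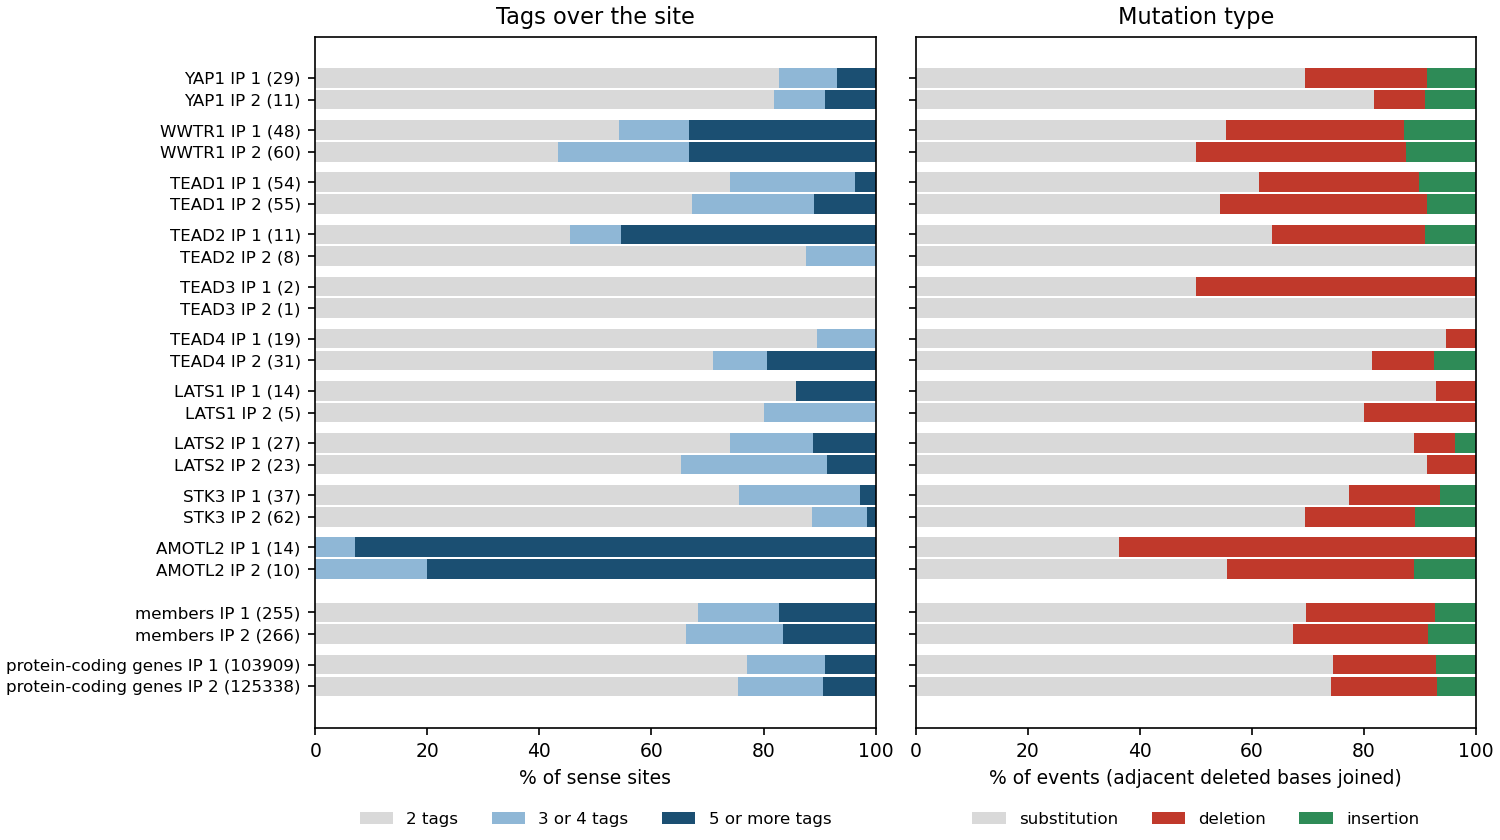
Left, the share of sense sites with 2, with 3 or 4 and with 5 or more tags over the site; right, the share of substitutions, deletions and insertions with adjacent deleted bases joined into 1 event; the number of sense sites stands in brackets. AMOTL2 and WWTR1 have the largest dark shares in both IPs among the members with at least 10 sites in each, and LATS2 and LATS1 consist mostly of substitutions.

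The kind of mutation also varied among the members. With adjacent deleted bases of equal tags joined into 1 event, an alternative way of counting chosen after seeing the data, deletions were 23.1% of events in IP 1 (17.8 to 29.01) and 24.1% in IP 2 (18.7 to 30.3), against 18.4% and 18.8% over all protein-coding genes. Substitutions were 69.7% (63.3 to 75.5) and 67.4% (60.8 to 73.5), against 74.6% and 74.2%. Both IPs had 54 deletion events, which the lists give as 75 and 96 bases. The longest were 8 adjacent bases in STK3 in IP 2 and 6 in YAP1 in IP 1, the YAP1 one with 2 of 2 tags at chr11:102144874-102144879. LATS2 had 24 substitutions among 27 sense sites in IP 1 and 21 among 23 in IP 2, and LATS1 had 13 of 14 and 4 of 5. WWTR1 was more mixed, with 26 substitutions, 15 deletions and 6 insertions in IP 1 and 24, 18 and 6 in IP 2. The 14 AMOTL2 sites of IP 1 were 4 substitutions and 7 deletions once joined. YAP1 had 16 substitutions, 5 deletions and 2 insertions in IP 1, and 9, 1 and 1 in IP 2.

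Sites on the strand opposite a member numbered 19 of 274 in IP 1 (6.93%, 4.23 to 10.6) and 26 of 292 in IP 2 (8.90%, 5.90 to 12.8), against 11.1% and 15.2% for all protein-coding genes. Most of them belonged to TEAD1, with 13 of its 67 sites in IP 1 (19.4%, 10.8 to 30.9) and 15 of its 70 in IP 2 (21.4%, 12.5 to 32.9). WWTR1 had 3 and 5, TEAD4 had 2 and 3, and YAP1 had 1 and 0. AMOTL2 had 0 and 2, STK3 had 0 and 1, and TEAD2, TEAD3, LATS1 and LATS2 had none in either IP. The only antisense base of the members listed in both IPs was in WWTR1, at chr3:149518923-149518923, with 2 of 2 tags in each.

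The antisense sites of TEAD1 were gathered at the 3′ end of the gene. The last 50 kb held 13 in IP 1 and 12 in IP 2, or 2.60 and 2.40 per 10 kb, while the other 219.9 kb held 0 and 3. Sense sites of TEAD1 were spread over the gene, with 9 and 11 in the last 50 kb and 45 and 44 in the rest. On the minus strand the sites went on past the end of TEAD1. The 17.4 kb between TEAD1 and LINC00958, a long noncoding RNA gene on the minus strand, held 4 and 7 minus-strand sites, 1 of them at the same base in both IPs, against 1 and 0 on the plus strand. The span of LINC00958 held 3 and 6 sites on the minus strand and 0 on the plus strand in either IP. The antisense gene AC013549.1 and the small RNA gene RF00424 are also annotated on the minus strand within the last 50 kb of TEAD1. The spans of both held 0 of the antisense sites in either IP. The 50 kb window and the neighbouring gene were chosen after the values were seen, and whether the minus-strand sites of TEAD1 and LINC00958 come from 1 transcript was not tested.

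**Figure D4:**
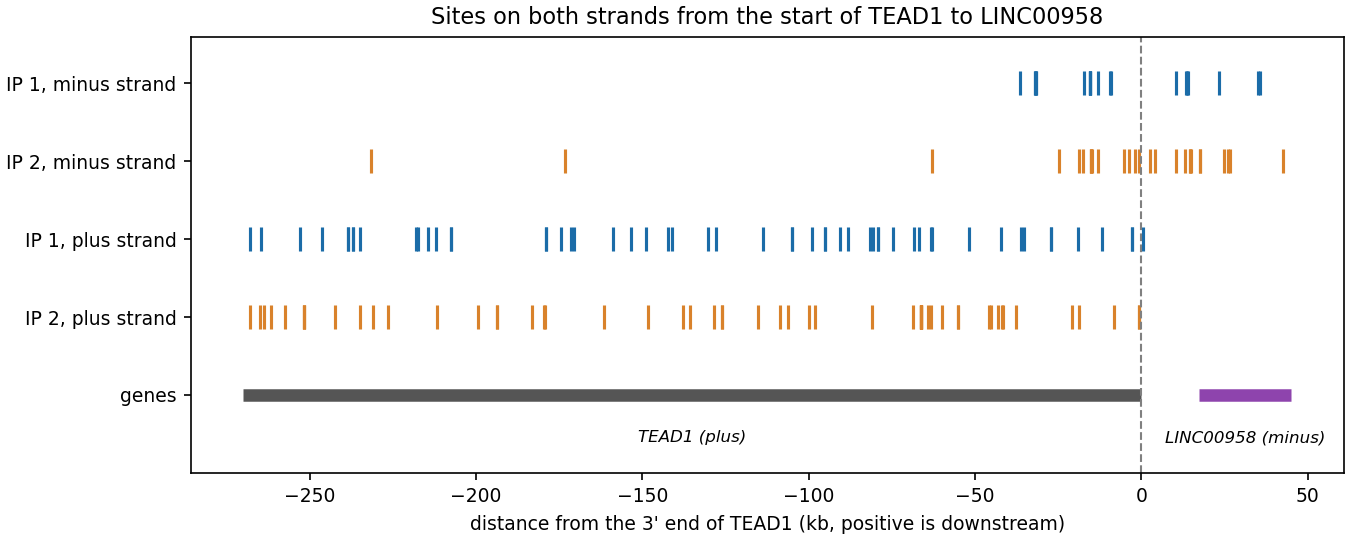
Sites on both strands from the start of TEAD1 to the end of LINC00958, by distance from the 3′ end of TEAD1 in kb. Each strand and IP has 1 row, with TEAD1 and LINC00958 below, and other annotated genes are not drawn. Minus-strand sites run from LINC00958 into the last 50 kb of TEAD1 in both IPs, and plus-strand sites stop near the end of TEAD1.

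Other genes of the pathway were taken from 2 lists. Of 40 other Hippo regulators, 34 were named in both IPs, against 55.5% of all protein-coding genes. The 3 named in neither were the kinase gene MAP4K2 and the TEAD cofactor genes VGLL1 and VGLL2. A shared sense base was found in 19 regulators, against 14.1% of all protein-coding genes. The median span of the list was 121.5 kb. In the length group that holds this span, that of YAP1, 84.4% of genes were named in both IPs and 28.9% had a shared sense base. The median percentile of the list was 70.7 in IP 1 and 73.4 in IP 2, against 92.5 and 89.0 for the 10 members. Of 29 regulators tested between the IPs, 0 were called in either direction by the adjusted exact binomial test. Most sites were in PARD3, a cell polarity gene of 705.8 kb, with 144 sense sites in IP 1 and 161 in IP 2, 7 shared bases and percentiles of 92.3 and 91.8. TNIK, a kinase gene, had 72 and 108, at percentiles 89.7 and 95.6, and PATJ, another polarity gene, had 60 and 58, at percentiles 81.6 and 74.5. STK4, which encodes the kinase most like that of STK3, had 21 and 18 sense sites at percentiles 86.4 and 74.1, and AMOT and AMOTL1, the relatives of AMOTL2, had 0 and 3 and 4 and 11. STK4, AMOT and AMOTL1 are named here for their kinship with members.

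Of 20 genes known as targets of YAP1 and TAZ, 17 were named in both IPs, against 55.5% of all protein-coding genes, and 0 in neither. A shared sense base was found in 7 targets, against 14.1% of all protein-coding genes. These shares are not matched for length, and the median span of the list was 44.4 kb against 27.2 kb. The median percentile of the list was 80.2 in IP 1 and 93.0 in IP 2. By the adjusted exact binomial test 0 of 13 tested were called. RBMS3, which encodes an RNA-binding protein, had 111 and 184 sense sites over 1435.6 kb, at percentiles 63.8 and 73.1. ASAP1, which encodes a regulator of Arf GTPases, had 111 and 125 at percentiles 97.9 and 97.3. MYOF, which encodes the membrane protein myoferlin, had 90 and 76 at percentiles 99.9 and 99.8, with 7 shared bases. The short gene CCN2, a widely used readout of YAP1 activity, had 2 sense sites in each IP and no shared base. Over its 3.2 kb these placed it at percentiles 96.1 and 95.6, ranks that rest on 2 sites each. CCN1, a target gene that also spans 3.2 kb, had 0 and 2 sense sites, at percentiles 45.1 and 95.6. The target ANKRD1 had 1 and 1, at percentiles 72.3 and 68.5. AMOTL2, itself such a target, had fewer sites than MYOF or ASAP1 but more tags per site than any other member.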

How the data were processed

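The authors deposited 1 list of sites for each PARP1 IP. Per the file headers, each row gives whole-number counts of tags over a base and of mutated tags, and an FDR (a q-value). The tools bcl2fastq and TopHat2 and the build GRCh38 are named, per the submitters' processing notes. Not given in the sources used here are the program that called the sites, its settings, duplicate removal, the assignment of reads that map to several places and the annotation release. Amplified tags without molecular identifiers are not independent molecules.

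Genes were matched to GENCODE release 29 by Ensembl identifier without version. Densities, ranks in 10 bins of gene span, exact Poisson and Clopper-Pearson intervals (95%) and exact binomial tests were computed in Python 3.11.15 with pandas 2.3.3, numpy 2.4.6 and scipy 1.17.1, for genes with at least 5 sense sites in the test. The test was run on simulated data first. The planned base context was read only for exonic sites, from transcripts. The members and lists were chosen with earlier results of these data known. Named were all members, and from each list the 3 genes with most sites and those with none. The genes CCN1, CCN2, ANKRD1, STK4, AMOT and AMOTL1 were added after their values were seen. Alternatives were other filters on mutated tags, mutation types, bins, totals and annotations.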

Additional observations from a re-analysis of the deposited data

How the results depend on the processing

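The number of members named in both IPs was 5 with exon sites only and 9 or 10 under the other settings, against 10. With at least 3 mutated tags in both IPs 1 member kept a shared base, and with deletions and insertions only 2 did, against 7. Requiring at least 3 mutated tags left 40 of 255 member sense sites in IP 1 and 43 of 266 in IP 2, and substitutions only left 163 and 151. The median percentile in IP 2 was 79.3 with substitutions only and 84.9 with at least 3 mutated tags, against 89.0. The YAP1 difference was called in 1 of 5 settings: the number of members called was 0 with intronic sites as the total (adjusted p = 0.139 for YAP1 by the exact binomial test), with tags as the total (0.0506), with no minimum of 5 sites (0.0731) and with adjacent deleted bases joined (0.375). With at least 3 mutated tags the exon share was 9.64%, against 5.95%, and leaving out each IP in turn gave 4.14 to 7.84%. With at least 3 mutated tags TEAD3 kept 0 sense sites in IP 1. Its percentile there, 41.8 against 59.8, is only the middle rank of genes of like length without a site. The WWTR1 ratio, which was not called, was 1.01 with intronic sites as the total, against 0.904. Settings that filter sites leave fewer of them, and other causes of these changes were not tested. No paired analysis was possible because only the IP lists were analysed and the inputs they would pair with were not. Most member sites rest on 2 tags, so a gene without a shared base, such as YAP1, cannot be said to lack one at greater depth.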
